A study of Mus musculus with 12 samples.

Results

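Runx2, Sp7, Dlx3, Dlx5, Dlx6, Msx2 and Mef2c, 7 genes for transcription factors of the bone-forming lineage, were followed in OCY454, a mouse osteocyte-like cell line. They were taken by symbol from a table of 32245 gene rows, and all 7 had a row and passed the filter on low counts, Msx2 through 4 of the 6 groups and the others through all 6. KO cells were OCY454 in which exons 19 to 21 of Piezo1, a mechanically gated cation channel, had been deleted with CRISPR-Cas9, and WT cells were unedited OCY454. Each line was kept at 33 °C, moved to 37 °C to differentiate and collected at day 1, 14 or 28. Poly(A) RNA was sequenced in 2 libraries for each of the 6 groups, 12 in all. The labels do not say how many clones the KO line holds, nor that the 2 libraries of a group came from separate cultures, so p-values here measure only the spread between these libraries, which may be technical.

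Runx2 is the factor without which osteoblasts do not form in the mouse, and Sp7 (osterix) acts downstream of it. Dlx3, Dlx5, Dlx6 and Msx2 are homeodomain factors that respond to bone morphogenetic protein (BMP) signals, and Dlx and Msx proteins can compete for the same short A- and T-rich DNA sites. Mef2c is a MADS-box factor known in osteocytes for driving Sost, the gene of the Wnt inhibitor sclerostin.

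The genes lie on 5 chromosomes of the mouse build GRCm38/mm10. Runx2 (ENSMUSG00000039153.16) spans chr17:44495987-44814797 on the minus strand, and Sp7 (ENSMUSG00000060284.7) spans chr15:102356606-102367182 on the minus strand. Dlx3 (ENSMUSG00000001510.8) lies at chr11:95120119-95125296 on the plus strand. Dlx6 (ENSMUSG00000029754.13, chr6:6863334-6868568, plus strand) and Dlx5 (ENSMUSG00000029755.10, chr6:6877805-6882085, minus strand) face each other across 9236 bases. Msx2 (ENSMUSG00000021469.9, chr13:53466884-53473074, minus strand) and Mef2c (ENSMUSG00000005583.16, chr13:83504034-83667080, plus strand) share chromosome 13. Exons of Dlx6os2, on the opposite strand, cover 104 bases (4.38%) of Dlx6 exons, and those of Runx2os1 cover 519 bases (5.87%) of Runx2 exons. The strand setting of the counting is not given in the sources used here, so reads from these stretches cannot be assigned to either gene.

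RefSeq start-site sequence (GRCm38.p6) was at hand for 3 of the 7 genes, Runx2, Msx2 and Mef2c, and is shown because some members bind short DNA cores that can be looked for there. In the 250 bases before each start, both strands were searched for TGTGGT (the RUNX core), TAATTA and TAATTG (homeodomain cores) and GGGCGG (the GC box, named for the Sp family at large). These data do not show whether Sp7 itself reads the GC box, and no Mef2c site was searched for. The Runx2 window held TGTGGT once, 80 bases before the start and read as ACCACA on the gene's strand. The Msx2 window held TAATTA 187 bases and GGGCGG 160 bases before the start. The first of 3 Mef2c windows held TAATTG on each strand, and these copies share 2 bases. The second Mef2c window held TAATTA 102 bases and GGGCGG 10 bases before its start, and the last held none of the 4 motifs. Of 32851 windows of this length, 14.0% held TGTGGT, 4.84% TAATTA, 7.17% TAATTG and 32.7% GGGCGG, so that such letters are common, and a match describes the sequence only. The Runx2 and Msx2 windows lie partly or wholly inside the longer gene spans given above, and only 30 bases around the match are printed for them. Capitals mark the matched letters.
Runx2, chr17:44814690-44814719, minus strand: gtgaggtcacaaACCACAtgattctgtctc
Msx2, chr13:53472950-53472979, minus strand: tgactgctcctgTAATTAactcctaattta
Mef2c, chr13:83503784-83504033, plus strand: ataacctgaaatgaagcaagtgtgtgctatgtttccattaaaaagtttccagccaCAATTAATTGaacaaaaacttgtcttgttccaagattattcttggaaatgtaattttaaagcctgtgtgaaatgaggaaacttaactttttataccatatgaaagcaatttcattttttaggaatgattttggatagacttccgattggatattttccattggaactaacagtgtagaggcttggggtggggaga

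Total counts ran from 8590132 to 15357433 per library. Levels are CPM, each count over its scaled library total, and a gene is called where its adjusted p in edgeR's quasi-likelihood F test is under 0.05 (Benjamini-Hochberg over 13772 genes). Where 1 library is left out below, its group holds a lone library, and the p of that fit measures the spread of the other groups only. Piezo1 itself stood at 170 and 169 CPM in KO at day 1, against 216 and 215 CPM in WT, at 114 and 108 CPM in KO at day 14, against 211 and 206 CPM in WT, and at 282 and 276 CPM in KO at day 28, against 235 and 242 CPM in WT. Transcript outside the deleted exons is still counted, so this total checks the label little. The 13 osteoblast and osteocyte marker genes summed to between 6231 and 36360 CPM per library, whereas the 8 chondrocyte markers summed to at most 83.9 CPM and the adipocyte, muscle, endothelial, blood and neuron lists to at most 29.2 CPM each, with Myod1, Myog and Cd3e at 0 throughout. In every group most of the osteoblast and osteocyte sum was Col1a1 and Col1a2. In KO at day 1 these averaged 6464 and 5981 CPM, where the sum was 14310 to 14410 CPM. Of the osteocyte-defining genes, Sost averaged between 0.549 and 1.21 CPM in the 6 groups, and Fgf23 had no count in KO at day 1, KO at day 28 and WT at day 28. Dmp1, also an osteocyte marker, had more reads, with group means from 4.57 CPM in KO at day 1 to 14.0 CPM in WT at day 14. In bulk RNA, fewer cells expressing a gene and less RNA per cell cannot be told apart. The replicates were farthest apart at day 28: 62 of 9083 genes of at least 10 CPM differed more than 1.5-fold between them in KO, and 167 of 9326 in WT, against 3 to 24 genes in the other groups. Sp7 was one of these, with 1.58-fold between the KO libraries and 1.68-fold between the WT libraries of day 28. So was Dlx6 in WT, with 1.56-fold. Dlx3, which averaged under 10 CPM on that day, differed 1.69-fold in KO and 2.35-fold in WT.

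**Figure D1:**
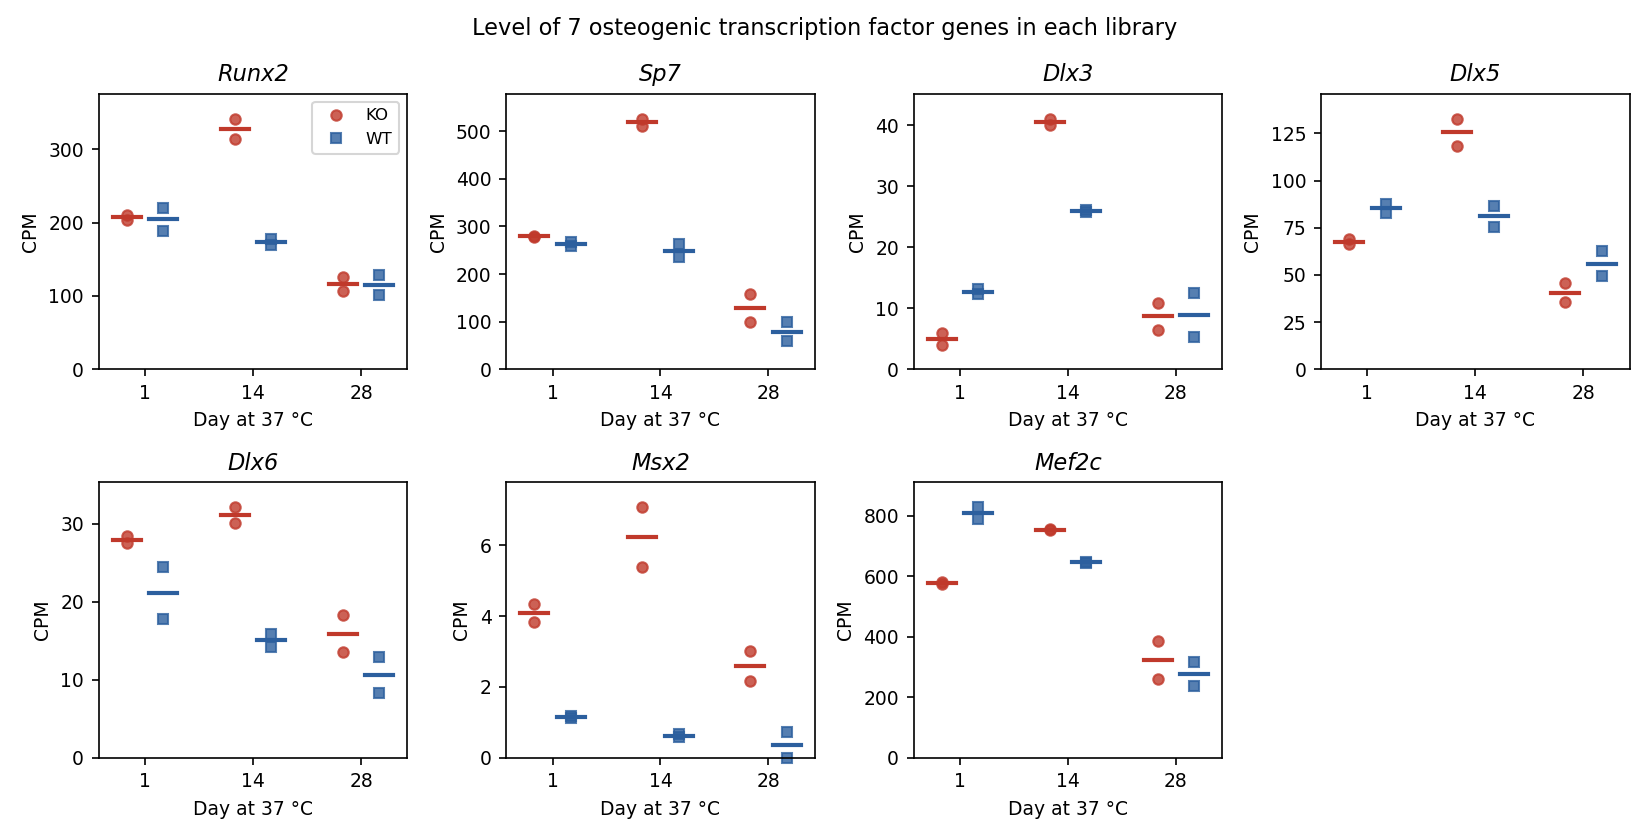
CPM (vertical axes, from 0) of each of the 7 genes by day at 37 °C, with 1 point per library (KO circles, left; WT squares, right) and a bar at the mean of the 2 libraries. In 6 of the 7 genes KO at day 14 holds the highest level, and in Mef2c WT at day 1 does.

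Runx2 and Sp7, the lineage-determining pair, did not differ between the lines at day 1 beyond the test's threshold, and both stood about 2-fold higher in KO at day 14. Runx2 had 210 and 204 CPM in KO at day 1, against 189 and 220 CPM in WT. It had 342 and 314 CPM in KO at day 14, against 177 and 170 CPM in WT, and 125 and 107 CPM in KO at day 28, against 128 and 101 CPM in WT. The day-14 KO libraries were the highest of the 12 and both WT libraries lay far below them, while the lines overlapped at day 1 and day 28. Sp7 had 279 and 280 CPM in KO at day 1, against 260 and 267 CPM in WT. It had 527 and 512 CPM in KO at day 14, against 262 and 236 CPM in WT, and 158 and 99.6 CPM in KO at day 28, against 99.2 and 58.9 CPM in WT. At day 28 the lower KO library and the higher WT library were nearly level. Each gene ordered the groups with KO at day 14 first and WT at day 28 last, a range of 2.87-fold between group means for Runx2 and 6.57-fold for Sp7. In that order KO and WT at day 1 overlapped for Runx2, and WT at day 1 and WT at day 14 overlapped for Sp7.

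The 3 Dlx genes had different patterns. Dlx3, a homeodomain factor of osteoblast and tooth mineralization, had 5.98 and 3.97 CPM in KO at day 1, against 12.3 and 13.1 CPM in WT. It had 39.9 and 41.1 CPM in KO at day 14, against 25.8 and 26.0 CPM in WT, and 10.9 and 6.45 CPM in KO at day 28, against 12.4 and 5.28 CPM in WT. KO thus lay below WT at day 1 and above it at day 14, and the WT values at day 28 spanned the KO values. Dlx5, which binds the Runx2 and Sp7 regulatory regions in osteoblasts, had 68.9 and 66.5 CPM in KO at day 1, against 82.6 and 87.9 CPM in WT. It had 133 and 119 CPM in KO at day 14, against 86.6 and 75.6 CPM in WT, and 45.5 and 35.7 CPM in KO at day 28, against 62.5 and 49.5 CPM in WT. KO was below WT at day 1 and day 28 and above it at day 14, with no overlap on any day. Dlx6, the neighbour of Dlx5, with which it acts partly redundantly in the mouse skeleton, had 27.5 and 28.5 CPM in KO at day 1, against 17.8 and 24.4 CPM in WT. It had 30.1 and 32.2 CPM in KO at day 14, against 15.9 and 14.2 CPM in WT, and 18.3 and 13.5 CPM in KO at day 28, against 13.0 and 8.34 CPM in WT. Every KO library was above both WT libraries of its day.

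Msx2, a homeodomain factor needed for growth of the skull bones, was the scarcest of the 7. Its raw counts were 45 and 59 in KO at day 1, against 18 and 17 in WT, 75 and 63 in KO at day 14, against 8 and 5 in WT, and 35 and 32 in KO at day 28, against 0 and 9 in WT. In CPM, KO libraries ran from 2.17 to 7.08 and WT libraries from 0 to 1.17, so the 6 KO and 6 WT libraries did not overlap. The count of 0 belongs to a single library, in which a level below 3 counts cannot be told from 0. Counts this small leave wide errors on the WT side.

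Mef2c was the most abundant of the 7 in reads. It had 581 and 576 CPM in KO at day 1, against 790 and 829 CPM in WT. It had 752 and 756 CPM in KO at day 14, against 644 and 649 CPM in WT, and 387 and 261 CPM in KO at day 28, against 318 and 238 CPM in WT. Its highest group was WT at day 1, and its day-28 groups were lowest in both lines and overlapped. Per length the order differed: Sp7 reached 153 CPM per kb of exon in KO at day 14, against 73.4 CPM per kb in WT, whereas Mef2c reached 48.0 CPM per kb in KO and 41.1 CPM per kb in WT. Sp7 was the highest of the 7 per kb in 5 groups, and in WT at day 28 Dlx5 (24.7 CPM per kb) stood beside Sp7 (23.3 CPM per kb). Msx2 was lowest per kb in all 6 groups. Lengths are of all annotated exons merged, 15715 bases for Mef2c and 3398 bases for Sp7, which lowers the per-length level of genes with many alternative exons.

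The first question of the design is how the lines differ at each day. At day 1, 5 of the 7 genes were called, 2 higher in KO (Dlx6 and Msx2) and 3 lower (Dlx3, Dlx5 and Mef2c), beside 40.3% of all genes tested (19.5% higher and 20.8% lower). Msx2 was 3.57-fold higher in KO (log2 fold change 1.83 ± 0.40, SE; adjusted p = 0.00086, edgeR) and Dlx3 2.58-fold lower (-1.37 ± 0.28; adjusted p = 0.00045, edgeR). Mef2c was 1.40-fold lower (-0.48 ± 0.12; adjusted p = 0.0030, edgeR) and Dlx5 1.26-fold lower (-0.33 ± 0.10; adjusted p = 0.014, edgeR). Dlx6 was 1.33-fold higher (0.41 ± 0.16; adjusted p = 0.043, edgeR). Runx2 (0.02 ± 0.09; adjusted p = 0.91) and Sp7 (0.08 ± 0.15; adjusted p = 0.71) were not called by edgeR. The Dlx6 call was lost on library totals (adjusted p = 0.083), in DESeq2 (adjusted p = 0.075) and without any 1 of 3 libraries (0.20 without WT replicate 1, against 0.66 without WT replicate 2), and the Dlx5 call without any 1 of 3 libraries (adjusted p up to 0.11). Leaving out either KO library left 3 of the 7 genes called.

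At day 14, 6 of the 7 genes rose in KO relative to WT and none fell, beside 23.8% of genes tested called higher and 25.9% lower (49.7% together). Msx2 was 9.69-fold higher in KO (3.28 ± 0.47; adjusted p = 5.9e-06, edgeR), Sp7 2.08-fold (1.06 ± 0.16; adjusted p = 9.1e-06, edgeR) and Dlx6 2.05-fold (1.04 ± 0.17; adjusted p = 4.1e-05, edgeR). Runx2 was 1.89-fold higher (0.92 ± 0.10; adjusted p = 8.7e-08, edgeR), Dlx3 1.56-fold (0.64 ± 0.20; adjusted p = 0.012, edgeR) and Dlx5 1.54-fold (0.63 ± 0.10; adjusted p = 3.7e-05, edgeR). Mef2c had a log2 fold change of 0.22 ± 0.12 and was not called (adjusted p = 0.14, edgeR), though it was without the filter on low counts (adjusted p = 0.0019). All 7 genes had both KO libraries above both WT libraries. The share of all genes tested that part in this way was not counted, so this only describes the 7. The osteoblast and osteocyte marker sum was also higher in KO on this day (36180 and 36360 CPM, against 20560 and 21740 CPM in WT). Most of that sum was Col1a1 and Col1a2 (17810 and 14910 CPM in KO, against 7200 and 9490 CPM in WT). Of the 12 markers tested, 4 were higher in KO, 5 lower and 3 not called (median log2 fold change -0.39). The part of the marker sum in the members' difference was not tested. The Dlx3 call was lost in DESeq2 (adjusted p = 0.20) and without any 1 of 3 libraries (adjusted p up to 0.071).

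At day 28, 3 of the 7 genes were higher in KO (Sp7, Dlx6 and Msx2) and Dlx5 was lower, beside 19.8% of genes tested called higher and 21.2% lower (41.0% together). Msx2 was 7.31-fold higher (2.87 ± 0.56; adjusted p = 0.00034, edgeR), Sp7 1.61-fold higher (0.69 ± 0.17; adjusted p = 0.0026, edgeR) and Dlx6 1.46-fold higher (0.54 ± 0.19; adjusted p = 0.024, edgeR). Dlx5 was 1.39-fold lower (-0.48 ± 0.11; adjusted p = 0.0020, edgeR). Runx2 (0.01 ± 0.10), Dlx3 (-0.09 ± 0.27) and Mef2c (0.22 ± 0.12) were not called, with adjusted p of 0.92, 0.82 and 0.18 in edgeR. The WT libraries of this day held 0 and 9 Msx2 counts. Msx2 stood at 1.77 without WT replicate 1, the library at 0, and at 8.03 without WT replicate 2, a fit against the lone library at 0 that depends on the prior count and is no bound. Single libraries decided several of the other values: without KO replicate 1, Sp7 and Dlx6 each stood at 0.33 and were no longer called. Without KO replicate 2, Dlx5 stood at -0.30 and was no longer called, and Mef2c stood at 0.48. Without WT replicate 1, Dlx3 stood at 0.68, Mef2c at 0.44, Sp7 at 1.11, Dlx6 at 0.91 and Dlx5 at -0.30. Without WT replicate 2, Sp7 stood at 0.36, Dlx3 at -0.55 and Dlx6 at 0.28, the last no longer called. Library totals also removed the Dlx6 call (adjusted p = 0.059). Mef2c was also called without the filter on low counts (adjusted p = 0.0034).

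**Figure D2:**
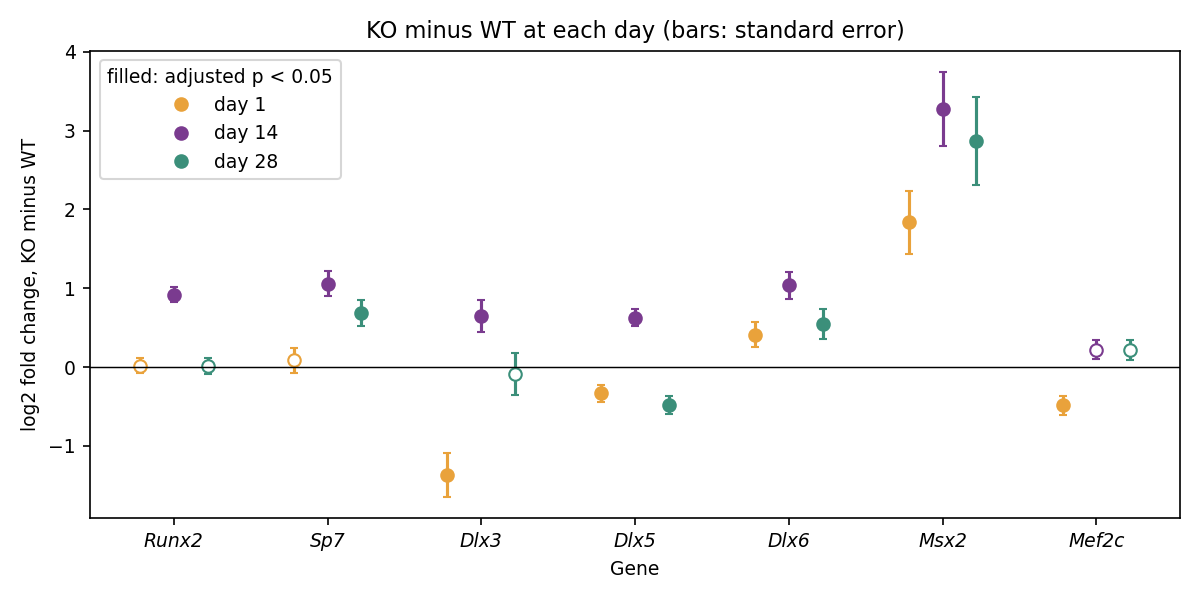
Log2 fold change of KO over WT (vertical axis) for each gene at day 1, 14 and 28 (left to right within a gene), with bars of 1 standard error and filled points where the edgeR adjusted p is under 0.05. Msx2 is above 0 on all 3 days (1.83, 3.28 and 2.87), Dlx5 is above 0 at day 14 only, and Dlx3 runs from -1.37 at day 1 to 0.64 at day 14.

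The second question is how each line changed over its days at 37 °C. These comparisons share libraries with those above, and the values are given side by side. From day 1 to day 14 in KO, 5 of the 7 genes rose and none fell (19.4% of genes tested were called higher and 18.0% lower, 37.5% together). Dlx3 was 8.22-fold higher at day 14 in KO (3.04 ± 0.25; adjusted p = 6.7e-09, edgeR). Sp7 (0.90 ± 0.15), Dlx5 (0.89 ± 0.10), Runx2 (0.66 ± 0.09) and Mef2c (0.38 ± 0.12) were also higher, with edgeR adjusted p of at most 0.017. The Mef2c call was lost in DESeq2 (adjusted p = 0.14) and without any 1 of the 4 libraries. Msx2 (0.60 ± 0.32; adjusted p = 0.15) and Dlx6 (0.15 ± 0.16; adjusted p = 0.47) were not called by edgeR.

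From day 1 to day 14 in WT, Dlx3 rose 2.04-fold (1.03 ± 0.22; adjusted p = 0.0011, edgeR), and Dlx6 (-0.47 ± 0.18; adjusted p = 0.042) and Mef2c (-0.32 ± 0.12; adjusted p = 0.043) fell (18.2% of genes tested were called higher and 15.9% lower, 34.1% together). Runx2 (-0.24 ± 0.10; adjusted p = 0.061), Sp7 (-0.08 ± 0.16), Dlx5 (-0.07 ± 0.10) and Msx2 (-0.84 ± 0.60) were not called by edgeR. The Runx2 value lay near the threshold: it was called on library totals (-0.30; adjusted p = 0.018), without the filter on low counts (adjusted p = 0.0085) and with a replicate block (adjusted p = 0.039). It stood at -0.34 without WT replicate 1 of day 1. Dlx6 stood at -0.23 without WT replicate 2 of day 1 (adjusted p = 0.46). DESeq2 called 0 of the 7 genes in this comparison (adjusted p of 0.050 for Dlx3, 0.055 for Dlx6 and 0.24 for Mef2c), against 3 by edgeR, and in edgeR 4 of the 7 had an unadjusted p under 0.05. Leaving out 1 of 3 libraries left Dlx3 alone called.

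From day 14 to day 28 all 7 genes fell in KO (25.6% of genes tested were called higher and 25.1% lower, 50.7% together), by between 0.99 and 2.25 on the log2 scale. Dlx3 was 4.76-fold lower at day 28, Sp7 4.06-fold, Dlx5 3.12-fold and Runx2 2.83-fold, each with an edgeR adjusted p of at most 4.1e-08. Msx2 was 2.42-fold lower (adjusted p = 0.0038, edgeR), Mef2c 2.34-fold and Dlx6 1.98-fold. The Msx2 call was lost without 2 of the 4 libraries (adjusted p up to 0.058). In WT, 5 of the 7 genes fell over the same days and none rose (17.9% of genes tested were called higher and 16.8% lower, 34.7% together). Sp7 was 3.14-fold lower at day 28 in WT, Dlx3 2.86-fold, Mef2c 2.32-fold, Runx2 1.51-fold and Dlx5 1.45-fold, each with an edgeR adjusted p of at most 0.00067. Dlx6 (-0.49 ± 0.19; adjusted p = 0.056) and Msx2 (-0.87 ± 0.78; adjusted p = 0.42) were not called in WT by edgeR. Dlx6 was called without the filter on low counts (adjusted p = 0.0070). It stood at -0.86 without WT replicate 1 of day 28 and at -0.23 without WT replicate 2 of that day. Without WT replicate 1 of day 28 Dlx3 stood at -2.29 and Msx2 at 0.23. Without WT replicate 2 Msx2 stood at -6.03, a fit that rests on a lone library at 0 counts. The osteoblast and osteocyte marker sum at day 28 was 6231 to 8704 CPM in KO and 7730 to 10780 CPM in WT, below each line's day-14 sum, and its part in these changes was not tested.

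Day 28 against day 1, the ends of the course, gave 5 genes lower and 1 higher in KO (28.2% of genes tested were called higher and 27.4% lower, 55.5% together) and 6 lower and none higher in WT (24.6% and 23.4%, 48.0% together). Sp7 fell by 1.12 in KO and by 1.73 in WT on the log2 scale, and Mef2c by 0.84 in KO and by 1.54 in WT. Runx2 fell by 0.84 in both. Dlx3 was the gene that was higher in KO (0.79 ± 0.30; adjusted p = 0.031, edgeR), a call lost on library totals (adjusted p = 0.052), in DESeq2 (adjusted p = 0.12) and without 2 of the 4 libraries (0.51 without KO replicate 2 of day 1 and 0.39 without KO replicate 1 of day 28). In WT Dlx3 was not called (-0.49 ± 0.25; adjusted p = 0.11, edgeR), but it was called lower without the filter on low counts (adjusted p = 0.0065). Its size rested on single libraries, at -1.26 without WT replicate 1 of day 28 and at -0.03 without WT replicate 2 of that day. Msx2 fell in WT (-1.71 ± 0.64; adjusted p = 0.033, edgeR), a call lost without 3 of the 4 libraries (adjusted p up to 0.38). Its size rested on the day-28 libraries, at -0.61 without WT replicate 1 and at -6.87 without WT replicate 2, where the remaining library has 0 counts. In KO Msx2 was not called (-0.67 ± 0.36; adjusted p = 0.11, edgeR), though it was without the filter on low counts (adjusted p = 0.040).

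**Figure D3:**
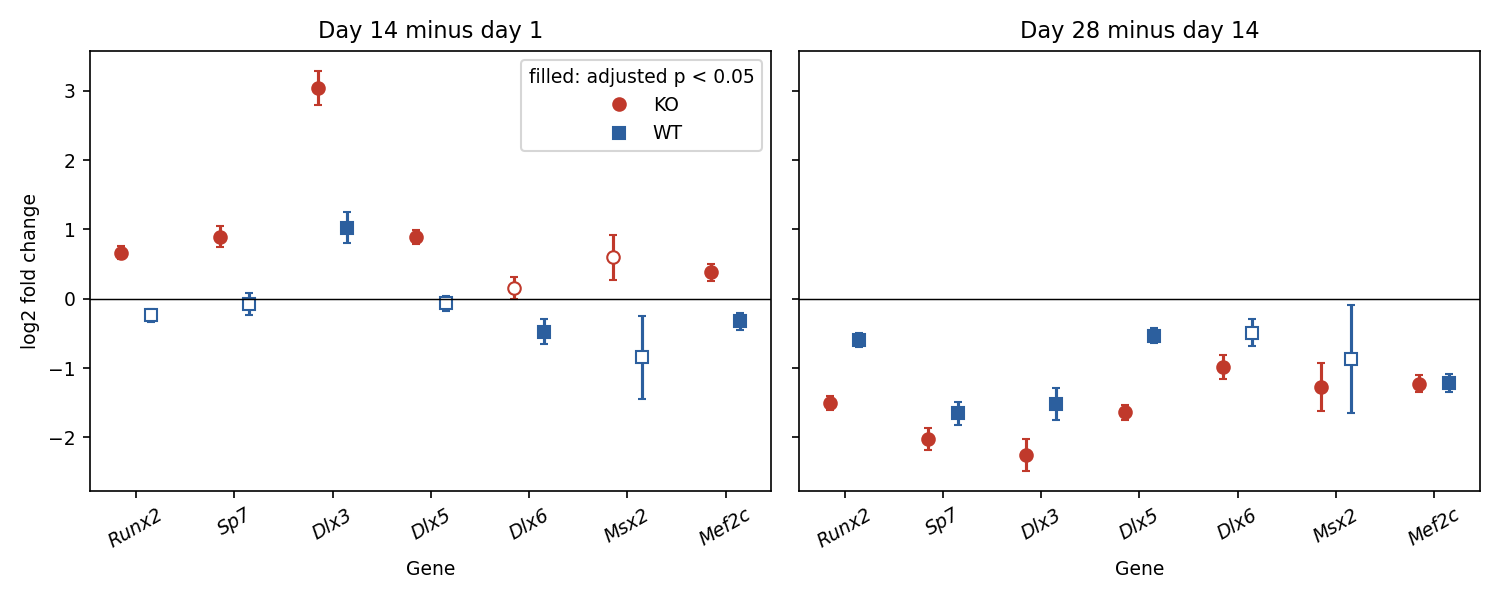
Log2 fold change of day 14 over day 1 (left panel) and day 28 over day 14 (right panel) for each gene, with KO circles left of WT squares, bars of 1 standard error and filled symbols where the edgeR adjusted p is under 0.05. Over the first interval the called KO values lie between 0.38 and 3.04, and over the second all 7 KO values are called and below 0.

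The third question is whether the lines differed in these changes, tested as interaction terms. The change from day 1 to day 14 was larger in KO than in WT for 5 of the 7 genes and smaller for none (9.19% of genes tested were called higher and 9.65% lower, 18.8% together). The difference between the lines was 2.01 ± 0.34 for Dlx3 (adjusted p = 0.00027, edgeR), 0.97 ± 0.22 for Sp7, 0.96 ± 0.15 for Dlx5, 0.90 ± 0.13 for Runx2 and 0.71 ± 0.17 for Mef2c, each on the log2 scale with an edgeR adjusted p of at most 0.0057. DESeq2 called 3 of these 5, with an adjusted p of 0.076 for Sp7 and 0.067 for Mef2c. Dlx6 (0.63 ± 0.24; adjusted p = 0.069) and Msx2 (1.44 ± 0.68; adjusted p = 0.15) were not called by edgeR. Dlx6 was called without the filter on low counts (adjusted p = 0.0084), and stood at 0.84 without WT replicate 1 of day 1.

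From day 14 to day 28 the fall was steeper in KO for Dlx5 (-1.10 ± 0.15; adjusted p = 1.6e-05, edgeR) and Runx2 (-0.90 ± 0.14; adjusted p = 4.8e-05, edgeR), 2 of the 7 genes (12.6% of genes tested were called higher and 11.5% lower, 24.1% together). The other differences ran from -0.73 ± 0.34 for Dlx3 to -0.01 ± 0.17 for Mef2c and were not called. Sp7 and Dlx3 were called as well without the filter on low counts. Without KO replicate 1 of day 28 they stood at -0.73 and -1.13, and without WT replicate 1 of that day at 0.058 and 0.036. Over day 1 to day 28 the lines differed in their change for Dlx3 (1.28 ± 0.39; adjusted p = 0.024, edgeR) and Mef2c (0.70 ± 0.17; adjusted p = 0.0065, edgeR). In both the KO change lay above the WT change (10.6% of genes tested were called higher and 9.46% lower, 20.0% together). Mef2c fell in both lines (-0.84 in KO and -1.54 in WT), and at day 28 itself neither gene was called in KO against WT. For this difference in change DESeq2 called 0 of the 7 (adjusted p of 0.13 for Dlx3 and 0.073 for Mef2c), against 2 by edgeR, and 3 of the 7 had an unadjusted p under 0.05 in edgeR. Without KO replicate 1 of day 28 edgeR called 0 of the 7 as well, with Mef2c at 0.38 (adjusted p = 0.060). Dlx3 stood at 2.05 without WT replicate 1 of day 28 and at 0.82 without WT replicate 2. Sp7 was called without the filter on low counts and with the replicate block. It stood at 0.90 without KO replicate 2 and at 1.03 without WT replicate 1 of day 28.

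Ratios between members within a library do not depend on its total. Dlx5 over Dlx6, per kb of exon, was 2.63 and 2.45 in KO at day 1, against 4.89 and 3.78 in WT. It was 4.63 and 3.87 in KO at day 14, against 5.70 and 5.57 in WT, and 2.62 and 2.77 in KO at day 28, against 5.05 and 6.22 in WT. The ratio was lower in both KO libraries than in both WT libraries on each day, with no test of the ratio run. Runx2 over Sp7 was between 0.236 and 0.317 in the 8 libraries of day 1 and day 14. At day 28 it was 0.306 and 0.412 in KO and 0.497 and 0.656 in WT, so that Sp7 was lower relative to Runx2 in WT.

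**Figure D4:**
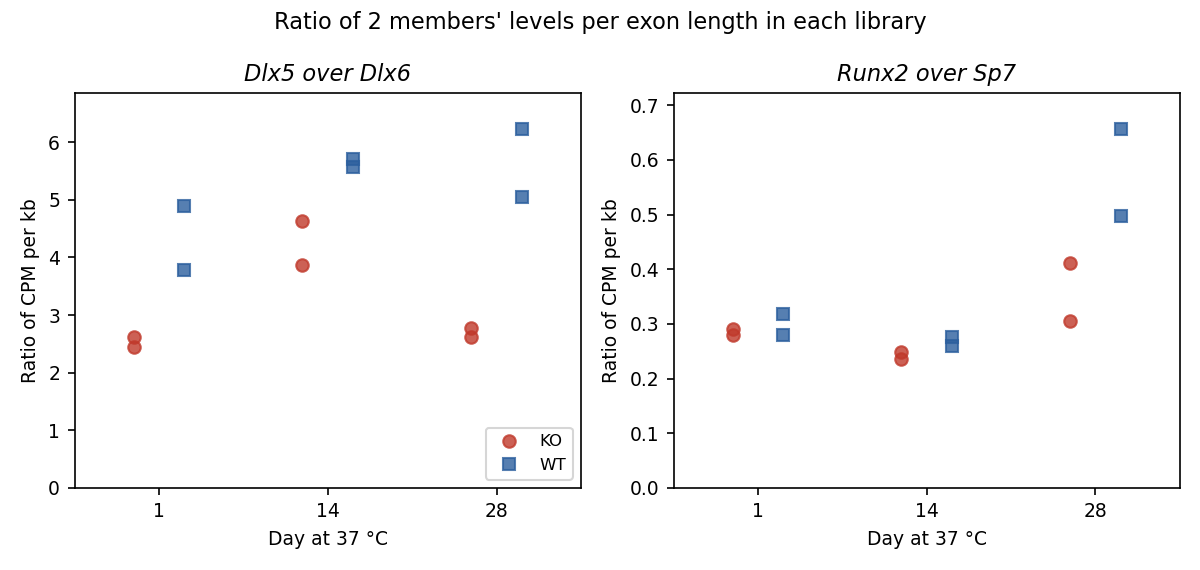
Ratio of the CPM per kb of exon of Dlx5 over Dlx6 (left) and of Runx2 over Sp7 (right) in each library by day, KO circles left of WT squares, with axes from 0. The Dlx5 to Dlx6 ratio runs from 2.45 to 4.63 in KO and from 3.78 to 6.22 in WT and does not overlap on any single day, and the Runx2 to Sp7 ratio is highest in WT at day 28.

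Across the 12 libraries, which share lines and days, the log2 CPM of Runx2 and Sp7 had a Pearson r of 0.958, the highest of the 21 member pairs, and Dlx3 and Msx2 had the lowest (0.051). Dlx5 and Dlx6 had an r of 0.637 over the same 12 libraries. Among 11612 genes (11613 for Msx2) averaging 1 or more in log2 CPM, the patterns most like Runx2 were those of Nhsl1 (0.988), Rnf144b (0.981) and Ccn4 (0.977), and those most like Sp7 were Naa10 (0.987), Epb41l2 (0.978) and Rnf144b (0.977). Dlx3 was closest to Lmo7 (0.955), Spns2 (0.943) and Robo2 (0.941), and Dlx5 to Zfp354c (0.981), Cmpk1 (0.969) and Maged2 (0.968). Dlx6 was closest to Atp2b4 (0.977), Kcnn4 (0.970) and Lhx9 (0.964), and Msx2 to Rgs19 (0.965), Rbm8a (0.965) and Mrpl22 (0.944). Mef2c was closest to Ubtd2 (0.985), Phospho1 (0.981) and Ptch1 (0.978). All are values over 12 libraries with no test.

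Genes that Runx2 or Sp7 are known to drive were read beside the 2 factors. Of 19 listed targets 18 were tested. Of all genes tested, 19.5% were called higher in KO and 20.8% lower at day 1, and 23.8% and 25.9% at day 14. At day 28 these shares were 19.8% and 21.2%. At day 14, when both factors were higher in KO, 6 targets were higher in KO, 6 lower and 6 not called (median log2 fold change -0.11, against -0.02 over all genes tested). The higher ones included the collagenase Mmp13 (2.79 ± 0.24), the type I collagen gene Col1a1 (1.31 ± 0.16) and the mineralization gene Ifitm5 (1.31 ± 0.15). The lower ones included the matrix genes Dmp1 (-0.92 ± 0.23), Spp1 (-0.81 ± 0.09) and Ibsp (-0.56 ± 0.13) and the osteocalcin copies Bglap, Bglap2 and Bglap3, whose near-identical sequences may share reads. At day 1, 5 targets were higher in KO, 4 lower and 9 not called (median 0.06, against -0.01 over all genes), and at day 28 KO was above WT for 4, below it for 6 and 8 were not called (median -0.18, against -0.01). Alpl, the mineralizing phosphatase, was lower in KO at day 1 (-0.60 ± 0.14), higher at day 14 (0.47 ± 0.14) and lower at day 28 (-1.23 ± 0.15), as Dlx5 was.

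The targets were also counted over the days. From day 1 to day 14 in KO 12 of the 18 targets rose and 3 fell (median 0.73, against 0 over all genes), and from day 14 to day 28 in KO 3 rose and 12 fell (median -1.12, against -0.01). Of all genes tested, 19.4% rose and 18.0% fell in KO over the first interval, and 25.6% and 25.1% over the second. In WT, where Sp7 was not called from day 1 to day 14 and Runx2 was near the threshold of a fall, 11 targets rose and 2 fell (median 0.47), and from day 14 to day 28 3 rose and 12 fell (median -0.92). The shares of all genes in WT were 18.2% rising and 15.9% falling over the first interval, and 17.9% and 16.8% over the second. Col1a1 averaged 6464, 17810 and 2261 CPM at day 1, 14 and 28 in KO, and 4812, 7200 and 2550 CPM in WT. Bglap2 (0.47 and 1.61) and Bglap3 (2.05 and 3.08, from 0.514 CPM at day 1) rose over both intervals in KO, and Bglap was called over neither. Runx2 and Sp7 rose in KO over the first interval and fell over the second.

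**Figure D5:**
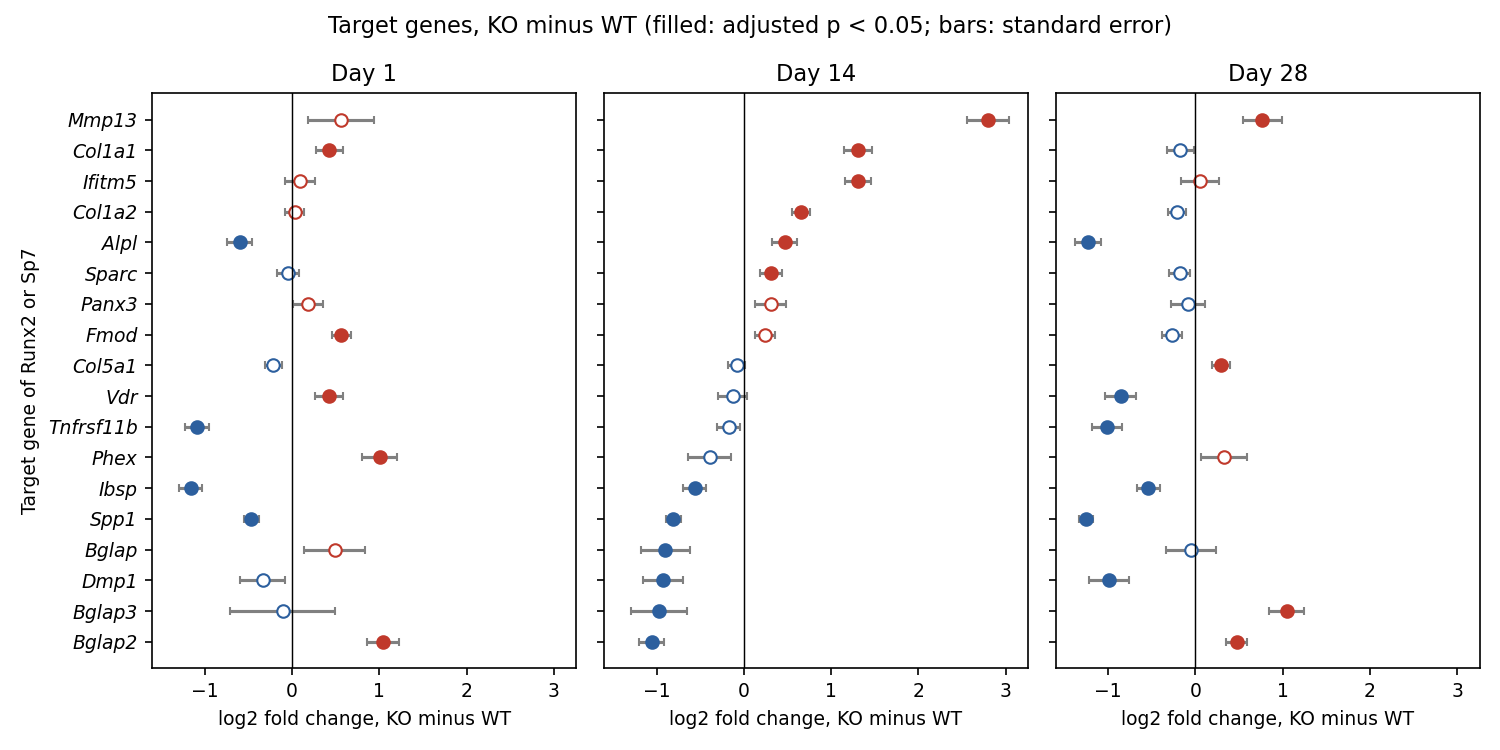
Log2 fold change of KO over WT (horizontal axes) of the 18 tested target genes of Runx2 or Sp7 at day 1, 14 and 28, ordered by the day-14 value, with bars of 1 standard error and points filled where the edgeR adjusted p is under 0.05 (red above 0, blue below). At day 14 the called targets run from -1.06 (Bglap2) to 2.79 (Mmp13), with 6 above 0 and 6 below.

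Partners and restrainers of Runx2 and Sp7 were counted in the same way. Beside this list and those below stand the shares of all genes given with the targets, 40.3%, 49.7% and 41.0% called in either direction at day 1, 14 and 28. The medians over all genes were -0.01, -0.02 and -0.01. No list was tested against these shares. Of 20 tested, 7 were higher in KO and 3 lower at day 1 (median 0.10), 9 higher and 4 lower at day 14 (median 0.18), and 8 higher and 5 lower at day 28 (median 0.10). Cbfb, the non-DNA-binding subunit that raises the affinity of Runx proteins for DNA, was higher in KO at day 1 (0.25) and day 14 (0.26). Among genes that restrain Runx2, Hey1 (1.54 ± 0.17) and Zfp521 (0.80 ± 0.13) were higher in KO at day 14, and the ubiquitin ligase gene Smurf1 (-0.45 ± 0.09) was lower. Atf4, which acts with Runx2 on osteocalcin, was lower in KO at day 1 (-0.53) and day 14 (-0.70) and higher at day 28 (0.44). Lef1, a Wnt effector that can repress Runx2-dependent transcription, was higher on all 3 days (0.84, 1.55 and 1.47).

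Of 16 paralogues 13 were tested, with 1 higher in KO and 5 lower at day 1 (median -0.16), 4 higher and 3 lower at day 14 (median 0.06), and 3 higher and 3 lower at day 28 (median 0.14). Runx2's own paralogues went the other way from it at day 14: Runx1 (-0.91 ± 0.14) and Runx3 (-0.29 ± 0.08) were lower in KO. Dlx1 (1.24 ± 0.22) and Dlx2 (1.28 ± 0.29) were higher in KO at day 14, like the 3 Dlx members, while Dlx4 was not called (0.09 ± 0.32; adjusted p = 0.84, edgeR). Msx1 was called only at day 28 (0.69), and Mef2a was not called on any day (-0.13, 0.13 and 0.01).

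Of 22 signalling genes upstream of these factors 20 were tested, with 6 higher in KO and 5 lower at day 1 (median -0.02), 8 higher and 4 lower at day 14 (median 0.24), and 5 higher and 6 lower at day 28 (median -0.02). At day 14 the BMP target Id1 (1.51 ± 0.37) and the BMP receptor gene Bmpr2 (0.91 ± 0.07) were higher in KO, and the ligand gene Bmp4 (-0.85 ± 0.08) was lower. Grem1, a secreted BMP antagonist, was lower in KO on all 3 days (-1.78, -2.43 and -1.12). Bmp2 averaged 308 CPM in KO at day 28, against 68.6 CPM in WT, a difference of 2.17 ± 0.06, on the day when Runx2 was not called. Id1 averaged 5.88 ± 1.03 CPM in KO at day 14, against 1.91 ± 1.72 CPM in WT (SD, n = 2 each), so the WT spread was nearly as large as its mean. Of the other listed BMP targets, Id2 (-0.10; adjusted p = 0.69, edgeR) and Id3 (0.26; adjusted p = 0.089, edgeR) were not called at day 14, and both were lower in KO at day 28 (-1.04 and -0.61), when Id1 was not called (-0.04).

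Of 10 osteocyte genes linked to Mef2c or Sp7, of which Dmp1, Phex and Tnfrsf11b are also among the targets above, 9 were tested, with 2 higher in KO and 2 lower at day 1 (median -0.04), none higher and 3 lower at day 14 (median -0.39), and none higher and 4 lower at day 28 (median 0.02). Sost was not called in KO against WT on any day (-0.46, -0.54 and 0.02), while Mef2c was lower in KO at day 1 alone. Ostn, the gene of osteocrin, had no count in KO at day 1 and day 14 and averaged 5.33 CPM in KO at day 28, against 15.0 CPM in WT. Putting such genes at a bound of 3 counts over the group left these medians as they were.

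Of 15 neighbouring or antisense genes 13 had a row and 12 were tested, with 2 higher in KO and 3 lower at day 1 (median -0.08), 3 higher and 2 lower at day 14 (median 0.19), and 2 higher and 2 lower at day 28 (median -0.07). Dlx6os1, the antisense RNA that spans Dlx6, averaged 7.17 CPM in KO at day 14, against 7.22 CPM in WT, and was not called on any day (0.14, -0.03 and -0.19), while Dlx6 was called on all 3. Supt3, which overlaps the 5′ part of Runx2 on the other strand, was lower in KO at day 1 (-0.48 ± 0.18) and not called at day 14 (0.20) or day 28 (0.10). Runx2os1, whose exons overlap those of Runx2, averaged at most 1.49 CPM in any group.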

How the data were processed

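The deposited values are read counts per gene for 12 libraries, used as the authors deposited them (0 library columns were left out). Per the submitters' processing notes, STAR, featureCounts of Subread and edgeR were used with the build mm10; for versions, annotation and strand setting, nothing is given in the sources used here. Of 32248 rows, 3 transgene rows were left out and 9345 rows had no count.

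The tests were run with edgeR 4.0.16 in R 4.3.3. Genes were kept by filterByExpr (minimum count 10, minimum total 15), libraries were scaled by TMM (factors 0.942 to 1.05), and 1 coefficient per group was fitted to all 12 libraries (6 residual and 14.6 prior degrees of freedom, common biological coefficient of variation 5.53%). Each of 12 comparisons used the two-sided quasi-likelihood F test with Benjamini-Hochberg adjustment over the 13772 genes tested. Standard errors are the log2 fold change over the square root of F. The fit was tested on simulated data. Mitochondrial genes took 1.12% to 2.31% of counts.

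Alternatives were DESeq2 1.42.0 (test, and size factors alone), library totals, no filter on low counts, a replicate block and leaving out each library. Gene models came from a GRCm38/mm10 annotation that held 97.4% of the row symbols, and start-site sequence from RefSeq.

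Named genes are the 7 factors, members of the gene lists and, for each factor, the 3 genes of highest Pearson r (log2 CPM, prior count 2). Some list genes are not reported here and were left out of the list counts, and Cbfb is counted as a partner only, not as a paralogue. The factors and lists were chosen with earlier results of these data known.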

Additional observations from a re-analysis of the deposited data

Results flagged for a closer look

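By the interaction test itself, Dlx3, Sp7, Dlx5, Runx2 and Mef2c were called in their change over days (edgeR adjusted p given for each). Of all genes tested, 18.8% were called over day 1 to day 14, 24.1% over day 14 to day 28 and 20.0% over day 1 to day 28. From day 1 to day 14 the KO change exceeded the WT change by 2.01 ± 0.34 for Dlx3 (SE; adjusted p = 0.00027), 0.97 ± 0.22 for Sp7 (adjusted p = 0.0033), 0.96 ± 0.15 for Dlx5 (adjusted p = 8.8e-05), 0.90 ± 0.13 for Runx2 (adjusted p = 6.1e-05) and 0.71 ± 0.17 for Mef2c (adjusted p = 0.0057). From day 14 to day 28 the KO change lay below the WT change by -1.10 ± 0.15 for Dlx5 (adjusted p = 1.6e-05) and -0.90 ± 0.14 for Runx2 (adjusted p = 4.8e-05). From day 1 to day 28 it exceeded the WT change by 1.28 ± 0.39 for Dlx3 (adjusted p = 0.024) and 0.70 ± 0.17 for Mef2c (adjusted p = 0.0065). DESeq2 did not call Sp7 (adjusted p = 0.076) or Mef2c (adjusted p = 0.067) over day 1 to day 14. Nor did it call Dlx3 (adjusted p = 0.13) or Mef2c (adjusted p = 0.073) over day 1 to day 28.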

How the results depend on the processing

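Over 84 results for the 7 genes and their alternatives, 734 of 840 values kept their direction and their side of the threshold, 50 were no longer called, 29 became called and 27 changed sign. Having 2 libraries a group limits precision, and so do the 0 to 18 counts of Msx2 in WT. On library totals the Runx2 difference of KO minus WT was -0.042 at day 1 and -0.076 at day 28. Library totals also moved the share of called genes that were higher to 38.3% at day 1, 32.9% at day 28 and 41.1% for WT from day 1 to day 14, against 48.4%, 48.4% and 53.3% as reported. DESeq2 called 0 of the 7 genes for WT from day 1 to day 14, 3 for the difference between lines over day 1 to day 14 and 0 over day 1 to day 28. Without the filter on low counts 4 genes were called for the difference between lines over day 14 to day 28. Calls gained in that setting came with nearly unchanged differences and much smaller edgeR adjusted p. Sp7 over day 1 to day 28 stood at 0.596 (adjusted p = 1.9e-07), against 0.602 (adjusted p = 0.069) with the filter. Mef2c at day 14 stood at 0.224 (adjusted p = 0.0019), against 0.222 (adjusted p = 0.14). Why p fell was not tested, so calls made only without the filter carry little weight. Replicate numbers gave little sign of pairing over all groups: of 15 same-number pairs 1, KO with WT at day 28, had a correlation over 0.1 (range -0.040 to 0.11). On that day replicate 1 was the higher library in both lines for Runx2, Sp7, Dlx3, Dlx5, Dlx6 and Mef2c. The replicate block fits a common shift over all days, so it cannot account for a shift of day 28 alone. With the replicate block the difference between lines in Runx2 over day 1 to day 28 was 0.005, and Runx2 in WT from day 1 to day 14 (-0.24, adjusted p = 0.039) and the Sp7 difference over day 1 to day 28 (0.61, adjusted p = 0.023) became called.

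Leaving out 1 library at a time gave 3 to 4 of the 7 genes called at day 1, 2 to 6 at day 28, 1 to 3 for WT from day 1 to day 14, 2 to 5 for the difference between lines over day 14 to day 28 and 0 to 3 over day 1 to day 28. Over all genes it gave 1668 to 1914 calls for the difference over day 1 to day 14 (2595 as reported) and 1691 to 3899 over day 1 to day 28 (2759 as reported). Values that changed sign were these. KO minus WT ran from -0.090 to 0.13 for Runx2 at day 1, and at day 28 from -0.15 to 0.20 for Runx2, -0.55 to 0.68 for Dlx3 and -0.091 to 0.48 for Mef2c. In WT from day 1 to day 14, Sp7 ran from -0.16 to 0.0017 and Dlx5 from -0.18 to 0.029, and Msx2 from day 14 to day 28 from -6.03 to 0.23. The difference between lines over day 14 to day 28 ran from -0.73 to 0.058 for Sp7, -1.20 to 0.036 for Dlx3, -1.50 to 4.75 for Msx2 and -0.31 to 0.26 for Mef2c. Over day 1 to day 28 it ran from -0.16 to 0.19 for Runx2, -0.33 to 0.036 for Dlx5, -0.14 to 0.50 for Dlx6 and -0.063 to 6.19 for Msx2. The widest Msx2 values are fits against a lone library at 0 counts and depend on the prior count. The cause was not tested.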
